A study of Homo sapiens with 15 samples.

Results

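K562 cells that carried dCas9-KRAB together with the guide RNA Cr4 were compared with K562 cells that carried dCas9-KRAB and no guide RNA, by the peaks of accessible chromatin found in each library. The members were chosen by title: the 3 peak lists titled for dCas9-KRAB with Cr4 at HS2 and the 3 titled for dCas9-KRAB alone, 6 of the 15 lists of the series. K562 is an established human chronic myeloid leukaemia line with erythroid features. All 6 cultures had received a lentivirus with a puromycin resistance gene, with polybrene as a transduction aid, and selection with puromycin began about 96 h after transduction, so both groups share the repressor, the virus and the drug and differ in the guide. The labels number the libraries 1 to 3 in each group and speak of triplicate transductions, but they do not say how far the libraries of a group were handled apart. An exact permutation p-value here thus measures the spread between these 6 libraries, which may be partly technical. The limma fit used below takes its spread from all 15 libraries of the series, which may be partly technical too. The question put by the design is whether the guided repressor changes its target and whether it changes other sites of the genome.

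dCas9 is a Cas9 protein without nuclease activity that binds where its guide RNA directs it, and the KRAB domain fused to it is a repressor domain that recruits corepressors and the enzymes that deposit the heterochromatin mark H3K9me3. HS2 is a DNase hypersensitive site of the beta-globin locus control region, a row of such sites (HS1 to HS5) upstream of the embryonic gene HBE1, the fetal genes HBG1 and HBG2 and the adult genes HBD and HBB. HS2 and HS3 are known as the strong erythroid enhancers of the region, HS5 and the downstream 3' HS1 as its CTCF-bound boundaries, and K562 cells are known to express the embryonic and fetal genes but little adult globin.

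The 6 deposited lists held 61074 to 88822 peaks on hg19, and each group had 1 library that stood above the rest: replicate 2 without guide (88368 peaks) and replicate 3 with Cr4 (88822 peaks). The lowest local background that the peak caller allowed in a library, which follows its depth, was 2.99, 5.59 and 2.21 fragments in the libraries without guide and 3.39, 2.43 and 5.81 fragments in those with Cr4. No file or label used here gives the fragment total of a library. Lists of unequal length cannot be compared peak by peak, so only the 53098 peaks of highest fold enrichment on the autosomes and chromosome X were kept from each. The shortened lists overlapped as much between the groups (Jaccard index of the bases covered by peaks 0.657 to 0.775) as within them (0.652 to 0.707). Of 69147 regions with a peak in any of the 6 shortened lists, 38462 (55.6%) had a peak in all 6.

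Strength was read in 2 ways. The rank of a region is the percentile of its strongest peak by the authors' fold enrichment in the shortened list, from 0 (no peak) to 100, and was tested at 62858 regions. The summit pileup is the number of fragments stacked at the summit, recovered from the fold enrichment and the p-value of each peak, on the scale log2(fragments + 1) less the library's median, and was tested at 38888 regions, those that every one of the 15 deposited lists holds. The fold enrichment divides the pileup by a local background, also recovered, so a site whose pileup and background are both lower can keep its rank.

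At HS2 itself (chr11:5301766-5302230, hg19) a peak was called in all 6 lists. The summit pileup was 135, 150 and 110 fragments in the libraries without guide and 97, 57 and 113 fragments in those with Cr4. After each library's median was removed, the levels were 1.07, 0.46 and 1.04 (log2) without guide and 0.44, 0.03 and 0.03 with Cr4. Every Cr4 library lay below every library without guide, though the highest of the first and the lowest of the second, replicate 1 with Cr4 and replicate 2 without guide, were nearly level. The difference of the means was -0.69 on the log2 scale (limma SE 0.19), a ratio of 0.620 with 0.544 and 0.708 at 1 SE to either side. The two-sided exact permutation test gave p = 0.1, the smallest that 3 against 3 libraries allow, and limma's p adjusted over all 38888 regions was 1.00. In these bulk libraries, a lower signal in every cell and a loss of signal in some of the cells cannot be told apart.

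The peak at HS2 was not removed from the lists, and its fold enrichment differed less than its pileup. The fold was 9.09, 7.81 and 10.5 without guide and 8.55, 7.34 and 8.43 with Cr4. By rank, HS2 stood at percentile 70.4, 55.7 and 72.6 without guide and at 65.9, 48.0 and 64.6 with Cr4. Replicate 2 without guide lay within the Cr4 values on both. The difference in rank was -6.71 percentile points (limma SE 12.1; exact permutation p = 0.5; limma adjusted p = 1.00), and it was -0.949 without Cr4 replicate 2, -3.53 without replicate 3 of the cells with no guide and -12.0 without their replicate 2. The called peak was 457, 427 and 412 bp wide without guide and 391, 350 and 424 bp wide with Cr4, again with overlap.

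The local background at HS2 was lower with Cr4 as well. It stood at 14.0, 18.3 and 9.54 fragments without guide and at 10.5, 6.90 and 12.5 fragments with Cr4. Relative to each library's own lowest background, that is 4.68, 3.28 and 4.33 times without guide against 3.08, 2.84 and 2.16 times with Cr4, and the groups do not overlap. On the scale log2(background + 1) less the library median, the difference was -0.56 (limma SE 0.16, ratio 0.677; exact permutation p = 0.1). Of the 38888 regions, none had a lower limma p on this measure than HS2, although with adjustment no region passed. No source used here gives the width of the window over which the peak caller counted the background, and the background was examined after the values of HS2 had been seen. Fragments of HS2 itself may count toward its background, so the 2 measures may not be independent.

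HS3 (chr11:5305792-5306310, hg19), a second strong enhancer that lies 4.05 kb from HS2, was lower with Cr4 by both measures. Its summit pileup was 116, 151 and 94 fragments without guide and 72, 59 and 84 fragments with Cr4, or 0.85, 0.47 and 0.81 (log2, less the library median) against 0.02, 0.07 and -0.40. The groups were clearly apart, with a gap between the lowest library without guide and the highest with Cr4. The difference was -0.81 (limma SE 0.21), a ratio of 0.570, with an exact permutation p of 0.1 and a limma adjusted p of 1.00. Its rank was percentile 60.5, 58.6 and 62.7 without guide and 40.3, 40.1 and 31.0 with Cr4, a difference of -23.4 points (limma SE 9.81; exact permutation p = 0.1; limma adjusted p = 1.00).

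At HS1 and HS4, which flank these enhancers, the groups overlapped by pileup and by rank. At HS1 (chr11:5296783-5297378) the normalised pileup was -0.05, -0.08 and 0.58 (log2) without guide and -0.13, 0.14 and -0.04 with Cr4. The groups overlapped, and the sign of the difference of -0.16 rests on replicate 3 without guide, since it was 0.06 without that library. The rank of HS1 was higher on average with Cr4, by 17.7 points (10.9 without replicate 1 of the cells with no guide), with overlap (exact permutation p = 0.2), and its local background was lower, with a difference of -0.44 and no overlap (exact permutation p = 0.1). At HS4 (chr11:5309327-5309737) the pileup levels were 0.11, -0.17 and 0.37 without guide and -0.29, 0.47 and -0.19 with Cr4. Replicate 2 with Cr4 was the highest of the 6 at HS4, so the groups overlapped, and the difference of -0.11 turned to 0.03 both without Cr4 replicate 1 and without replicate 3 of the cells with no guide. The rank of HS4 differed by 14.0 points, higher with Cr4 and with overlap (exact permutation p = 0.3), and by 7.47 points without Cr4 replicate 2 and 7.59 without replicate 2 of the cells with no guide.

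The 2 boundary sites differed by less than the spread between libraries. HS5 (chr11:5312466-5312801) had pileup levels of -0.93, -0.85 and -0.51 without guide and -0.85, -0.79 and -0.81 with Cr4, a difference of -0.05 (limma SE 0.23). Leaving out replicate 1, 2 or 3 of the cells with no guide gave -0.14, -0.09 or 0.08. At 3' HS1 (chr11:5226033-5226442), the strongest of the cluster by rank, the levels were 0.32, -0.24 and 0.49 without guide and 0.08, -0.03 and -0.01 with Cr4. The Cr4 values lay inside the range of the others there, with a difference of -0.18 (limma SE 0.20; exact permutation p = 0.4). Without replicate 1, 2 or 3 of the cells with no guide it was -0.11, -0.39 or -0.02.

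Among the globin promoters, the 2 fetal ones were lower with Cr4. At HBG1 (chr11:5270839-5271354) the summit pileup was 78, 129 and 82 fragments without guide and 62, 56 and 96 with Cr4, or 0.28, 0.24 and 0.62 (log2, less the library median) against -0.19, 0.00 and -0.21. At HBG2 (chr11:5275738-5276312) it was 71, 137 and 72 fragments without guide and 58, 46 and 99 with Cr4, or 0.15, 0.33 and 0.43 against -0.29, -0.28 and -0.16. The groups did not overlap at either promoter after the library median was removed. The differences were -0.51 (limma SE 0.18, ratio 0.700) at HBG1 and -0.55 (limma SE 0.19, ratio 0.685) at HBG2, each with an exact permutation p of 0.1 and a limma adjusted p of 1.00. By rank the groups did not overlap either, with differences of -14.8 points at HBG1 and -11.8 points at HBG2 (exact permutation p = 0.1 for both). The rank difference of HBG2 was -5.29 points without Cr4 replicate 2. The 2 genes are near-identical copies, so fragments of one may have been placed at the other, and the 2 values are not independent.

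The adult promoter HBD (chr11:5255349-5256040) also had a peak in every list, and there the groups overlapped. Its pileup was -0.05, -0.21 and -0.05 (log2, less the library median) without guide and -0.10, 0.07 and -0.21 with Cr4. The values interleaved, with a difference of 0.02 (limma SE 0.15) that ran from -0.05 without Cr4 replicate 2 to 0.09 without Cr4 replicate 3, and the rank differed by 2.70 points. The sequence upstream of the HBD start is shown because HBD is the promoter of the cluster that had a peak in every list and whose groups overlapped, unlike HBG1 and HBG2, and because it is the only one of the 5 beta-like globin genes with an entry in the RefSeq promoter table used. It is the 250 bases before the start (chr11:5234484-5234733, GRCh38.p14, minus strand, RefSeq), 5′ to 3′. Capitals mark the matches to the GATA motif (GATAA, or TTATC on the other strand) and to the letters CCAAT (or ATTGG on the other strand).
HBD: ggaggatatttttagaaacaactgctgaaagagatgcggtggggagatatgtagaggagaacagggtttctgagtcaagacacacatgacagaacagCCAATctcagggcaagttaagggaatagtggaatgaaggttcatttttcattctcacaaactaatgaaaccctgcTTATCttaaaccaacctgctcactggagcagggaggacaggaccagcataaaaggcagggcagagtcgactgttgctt
GATAA was matched 1 time, 78 bases before the start, and 20.4% of 35116 RefSeq promoters of the same length hold it on either strand. CCAAT was matched 1 time, 153 bases before the start, and 32.0% of the promoters hold it. The motif CACCC, which reads GGGTG on the other strand, was matched 0 times and is held by 54.7%. The matches do not overlap, and each is a description of letters only.

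The embryonic promoter HBE1, which lies between HS1 and the fetal genes, had a peak in 1 of the 3 deposited lists without guide and in 0 of the 3 with Cr4, and in 3 of the other 9 lists. The promoter window of HBB, which encodes adult beta-globin, held 0 peaks in the 15 lists. In all, 9 of the 11 windows set for the cluster had a peak in all 6 lists. Among them were HS1 to HS4 and the promoters of HBG1 and HBG2, open sites known for an erythroid line that makes fetal globin. The adult promoter HBD was among them too, while the promoter of HBE1, a gene K562 cells are known to express, was not.

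**Figure D1:**
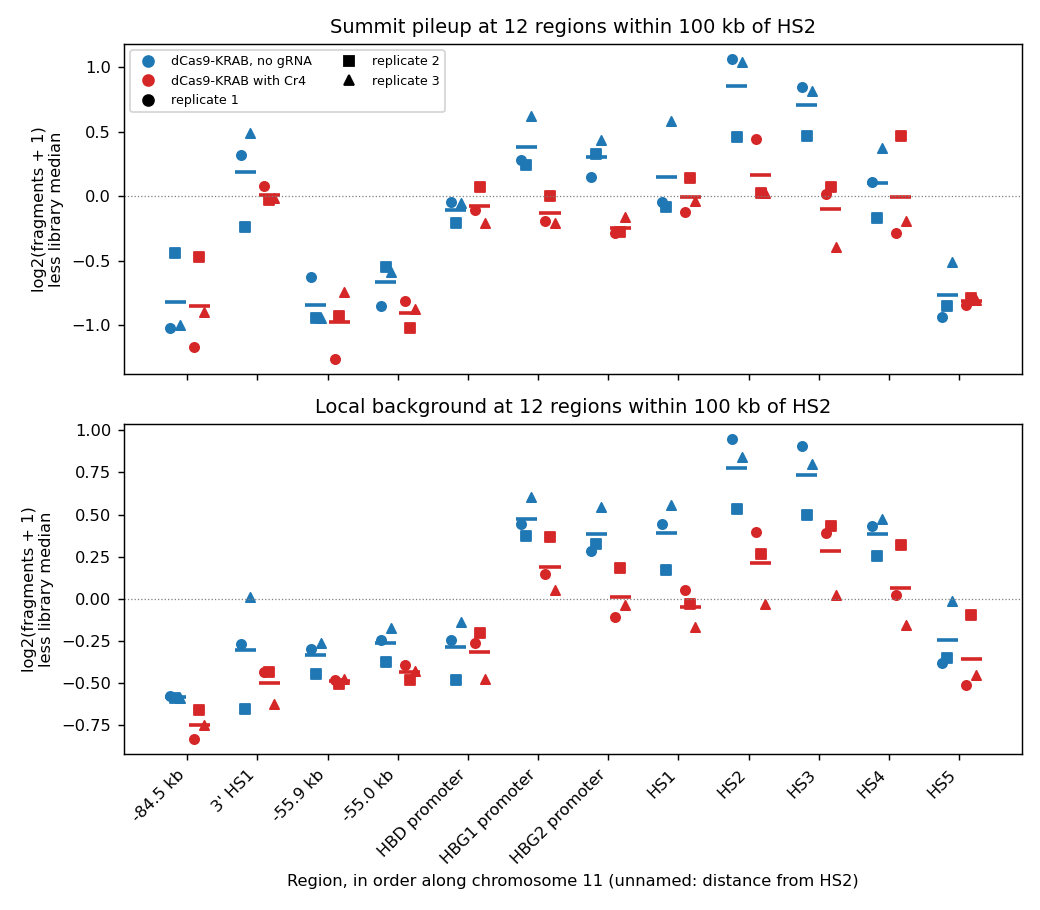
Normalised summit pileup (upper panel) and local background (lower panel) in each of the 6 libraries at the 12 regions within 100 kb of HS2 that had a peak in all 15 lists, in order along chromosome 11; both axes are log2(fragments + 1) less the library median, points are libraries (shape gives the replicate number) and bars are group means. At HS2, HS3, HBG1 and HBG2 every Cr4 point in the upper panel lies below every point without guide, while HS1, HS4, HS5 and HBD overlap.

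Some further regions of the cluster were not in the test on pileup. Between HBD and HBG1, a region at chr11:5264683-5265136 was tested by neither measure. It had a peak in 3 of the 3 deposited lists without guide, in 2 of the 3 with Cr4 and in 6 of the other 9. Between HBG2 and HBE1, a region at chr11:5279797-5280206 stood at percentile 22.7, 19.1 and 21.6 without guide and at 7.36, 5.70 and 0 with Cr4. Its groups do not overlap, with a difference of -16.8 points (limma SE 5.90; exact permutation p = 0.1; limma adjusted p = 1.00), and it was still listed in all 3 deposited Cr4 lists. A weaker region at chr11:5288326-5288665, -13.5 kb from HS2 toward the genes, had peaks of 15, 34 and 17 fragments in the 3 deposited lists without guide, 0 peaks in the 3 with Cr4 and a peak in 3 of the other 9 lists. In the shortened lists its groups overlapped, at percentile 0, 1.33 and 5.66 without guide and 0 in all 3 Cr4 lists (difference -2.33 points; exact permutation p = 0.4). Within 100 kb of HS2 it was the 1 region whose deposited peaks were complete in one group and absent from the other. By pileup and by rank, the remaining regions tested within 100 kb all overlapped between the groups. The 3 tested by pileup, at chr11:5217319-5217639, chr11:5245746-5246501 and chr11:5246781-5247127, had log2 differences of -0.03, -0.13 and -0.24, and the 2 tested by rank alone, at chr11:5356426-5356818 and chr11:5391132-5391397, differed by 0.200 and -11.7 points.

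The place of the globin sites among all regions was then read from the fit over the genome. By pileup, limma called 0 of 38888 regions (0%) with its adjusted p. Before adjustment 281 (0.723%) were under 0.05, 163 of them higher with Cr4 (0.419%) and 118 lower (0.303%). Well-calibrated p-values would put a share of about 0.05 there even if nothing differed. The limma p-values thus ran high in these data, and 0 calls do not show that no region differs. Why they ran high was not tested. Ordered by the unadjusted p, HS3 was in place 1, HS2 in place 2, HBG1 in place 8 and HBG2 in place 11. Ordered by the difference itself, HS3 was the lowest and HS2 the third lowest, with HBG2 in place 22 and HBG1 in place 37. These places move with the libraries used: over the alternatives run, HS2 stood between 1 and 46, HS3 between 1 and 22, HBG1 between 4 and 217 and HBG2 between 3 and 200 by limma p.

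**Figure D2:**
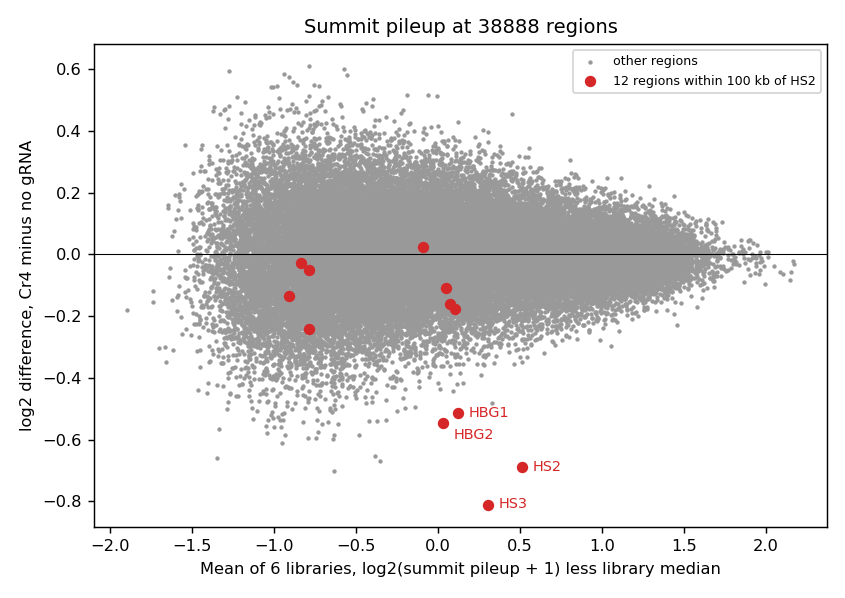
Difference in normalised summit pileup between Cr4 and no guide (vertical axis, log2) against the mean level over the 6 libraries (horizontal axis, log2(summit pileup + 1) less library median) for 38888 regions, with the 12 regions within 100 kb of HS2 in red. HS3 (-0.81) and HS2 (-0.69) lie below the other regions of similar level, HBG1 (-0.51) and HBG2 (-0.55) at the lower edge.

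The rank measure gave another order. By limma's adjusted p it called 0 of 62858 regions (0%). Before adjustment 1525 (2.43%) were under 0.05, 790 higher (1.26%) and 735 lower (1.17%). HS3 stood in place 795 by that p, HBG1 in place 1825, HBG2 in place 7504 and HS2 in place 32995. The local background, by the same fit, called 0 of 38888 regions (0%), and 35 (0.09%) were under 0.05 before adjustment, 21 lower (0.054%) and 14 higher (0.036%). HS2 was in place 1 by the limma p of the background, HS1 in place 2, HS3 in place 5 and HBG2 in place 33. The unadjusted shares of 2.43% and 0.09% also lie below a share of 0.05, so the same limit holds for these 0 calls.

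Read by distance from HS2, the share of regions with a lower pileup was highest nearest to it. Over the genome, the groups did not overlap and Cr4 was lower at 925 of 38888 regions (2.38%), and higher at 936 (2.41%). At HS2 this was 1 of 1 region lower, within 10 kb (HS2 left out) 1 of 3 lower, and from 10 to 100 kb 2 of 8 lower, with 0 higher in these classes. From 100 kb to 1 Mb, 0 of 17 regions were lower without overlap and 1 was higher. From 1 to 10 Mb, 9 of 367 were lower and 13 higher, on the rest of chromosome 11 42 of 1770 were lower and 38 higher, and on the other chromosomes 870 of 36722 were lower and 884 higher. Beyond 1 Mb the shares are near those of the whole genome in both directions.

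The size of the pileup differences followed the same course. The median difference was -0.69 at HS2, -0.16 within 10 kb, -0.16 from 10 to 100 kb, -0.05 from 100 kb to 1 Mb, 0.02 from 1 to 10 Mb and 0.01 on the rest of chromosome 11, all on the log2 scale. Whatever their overlap, 46 regions (0.118%) had a difference of -0.5 or lower and 21 (0.054%) one of 0.5 or higher. The middle 95% of all 38888 differences ran from -0.28 to 0.27. Cr4 was lower without overlap by at least 0.5 (log2) at 27 regions (0.0694%), and 4 of these were HS2, HS3, HBG1 and HBG2, 0 lay elsewhere within 10 Mb, 1 lay on the rest of chromosome 11 and 22 on other chromosomes. Cr4 was higher without overlap by at least 0.5 at 18 regions (0.0463%), with 0 within 10 Mb of HS2. By rank the course was another. Median differences were -6.71 points at HS2, 14.0 within 10 kb, -1.06 from 10 to 100 kb and 0.14 from 100 kb to 1 Mb. The groups overlapped by rank at HS2. Cr4 was lower by rank without overlap at 1 of 3 regions within 10 kb and 3 of 12 from 10 to 100 kb, with 0 higher. Over the genome the lower share by rank was 2.65%. The regions of one neighbourhood share their libraries and are not replicates.

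As one value per library, the neighbourhood without HS2 did not differ beyond the spread. The median level of the 28 regions within 1 Mb was -0.29, -0.23 and -0.05 (log2, less the library median) without guide and -0.41, -0.28 and -0.29 with Cr4. Replicate 1 without guide lay among the Cr4 values. The difference was -0.13 (exact permutation p = 0.3), and it was -0.06 without replicate 3 of the cells with no guide. Over the 11 regions within 100 kb it was -0.21 (exact permutation p = 0.5), and over the 395 regions within 10 Mb it was 0.03 (exact permutation p = 0.2).

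Along the cluster, the local background was lower without overlap at more regions than the summit pileup was. Over the genome the background was lower with Cr4 without overlap at 692 of 38888 regions (1.78%) and higher at 580 (1.49%). It was lower without overlap at HS2, at 2 of 3 regions within 10 kb (HS1 and HS3), at 5 of 8 from 10 to 100 kb and at 1 of 17 from 100 kb to 1 Mb. From 1 to 10 Mb the count was 7 of 367, on the rest of chromosome 11 30 of 1770 and on the other chromosomes 646 of 36722. The differences within 10 kb were -0.44 at HS1, -0.45 at HS3 and -0.33 at HS4, whose groups overlapped. Farther off they were -0.28 at HBG1 and -0.37 at HBG2, and -0.03 at HBD and -0.11 at HS5, where the groups overlapped. The background was recovered from the same peaks as the pileup, and the window over which it was counted is not known. Fragments of one site may count toward its own background and that of its neighbours. These values may thus not be independent of each other or of the pileup. This was not tested.

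**Figure D3:**
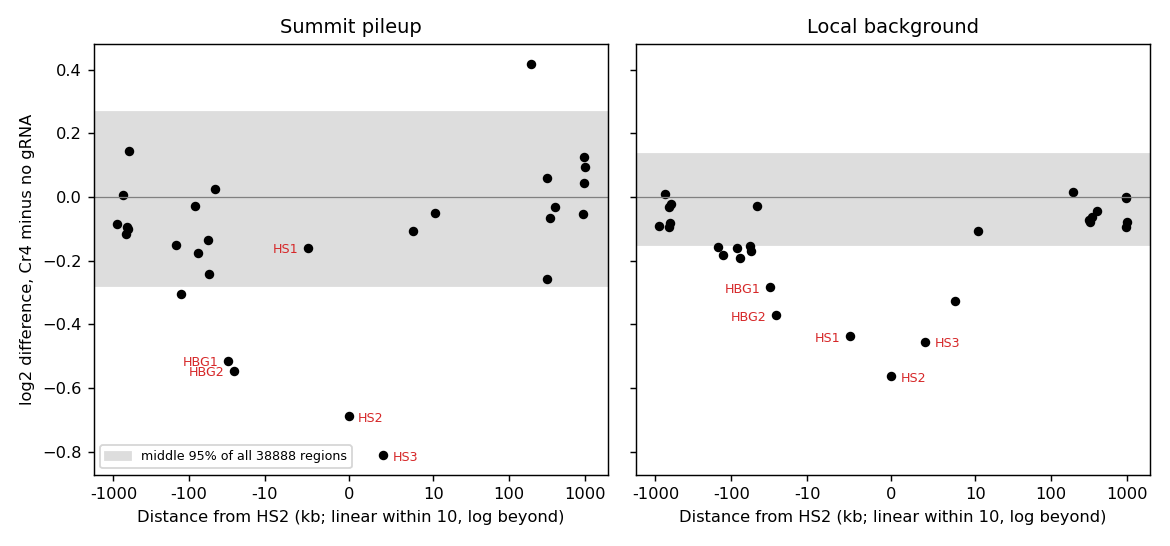
Difference between Cr4 and no guide in summit pileup (left) and local background (right), both on the log2 scale, for each of the 29 regions within 1 Mb of HS2, against distance from HS2 in kb (linear within 10 kb, logarithmic beyond; negative toward the globin genes); the grey band holds the middle 95% of all 38888 regions. HS3, HS2, HBG2 and HBG1 lie well below the band on the left, 1 region more than 100 kb toward the genes (-0.30) lies just under it and 1 on the other side (0.42) above it. HS2, HS3, HS1, HBG2, HS4 and HBG1 lie below it on the right, where most points from 10 to 100 kb toward the genes lie at or under its lower edge.

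Outside the globin cluster, the regions among the first 5 in each direction by limma p had pileup differences nearer to 0 than those of HS2 and HS3, and none passed adjustment. Among regions higher with Cr4 without overlap, the first was chr12:110348631-110349088, with levels of -0.09, -0.23 and -0.47 without guide and 0.40, 0.25 and 0.10 with Cr4 (log2, less the library median). Its difference was 0.51 (limma SE 0.17; exact permutation p = 0.1), place 3 of all regions by limma p. The next 4 in that direction, at chr17:4234752-4235363, chr3:196697984-196698393, chr11:113585942-113586369 and chr2:240186874-240187251, had differences of 0.59, 0.47, 0.60 and 0.58. On the lower side, HS3 and HS2 came first, and the list of 5 was completed by chr9:33239827-33240374 (-0.42), HBG1 and chrX:119115699-119116159 (-0.61). All had a limma adjusted p of 1.00.

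By rank, the first region in order was lower with Cr4 and lay at chr3:133634971-133635514. It stood at percentile 36.3, 23.4 and 51.3 without guide and at 0, 1.99 and 0.476 with Cr4, a difference of -36.2 points (limma SE 6.87; limma adjusted p = 1.00). The groups were far apart, but in the other 3 groups the region averaged percentile 2.41 (dCas9, Cr4), 6.83 (dCas9, Cr10) and 0 (dCas9-KRAB, Cr10), so the 3 libraries without guide were the high ones. The next on the lower side was chr13:44933840-44934115 at 54.9, 22.3 and 51.5 without guide and 0 in all 3 Cr4 lists. The list of 5 was completed by chr3:152048251-152048559 (-31.7 points), a region of chromosome 8 (-21.9 points) and chrX:71500312-71500778 (-25.2 points). On the higher side, chr4:164172394-164172678 stood at 0, 6.45 and 0 without guide and 20.7, 29.6 and 32.0 with Cr4, and chr16:3676517-3676768 at 0 in all 3 lists without guide and 19.4, 34.8 and 24.6 with Cr4. The other 3 of that list were chr2:198056261-198056491 (21.3 points), chr14:105757367-105757605 (19.1 points) and chr3:31766219-31766554 (33.2 points). The genes near these regions were not examined, since no hg19 annotation was used. The groups did not overlap by rank at 1853 regions where Cr4 was higher (2.95%) and at 1665 where it was lower (2.65%).

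Outright gains and losses were few and similar in number. In the shortened lists, 144 of 69147 regions were gained, with a peak in all 3 Cr4 lists and none of the 3 without guide (0.208%), and 137 were lost (0.198%). None lay within 1 Mb of HS2, 1 gained and 2 lost regions lay at 1 to 10 Mb, 8 and 6 on the rest of chromosome 11, and 135 and 129 on other chromosomes. In the deposited lists at full length, the counts were 111 gained of 103601 regions (0.107%) and 76 lost (0.0734%). Each count depends on the number of libraries: with 1 library left out, the gained regions were 411, 416 and 512 without Cr4 replicate 1, 2 and 3 and 367, 523 and 336 without replicate 1, 2 and 3 of the cells with no guide. The lost regions were 345, 310 and 482 and 441, 499 and 403 in the same order.

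Most gained and lost regions were weak peaks, toward the end of the shortened lists. Their median width was 318 bp (gained) and 336 bp (lost), against 393 bp for all regions. In the group that had the peak, the mean percentile was at the median 13.8 for gained and 15.9 for lost regions, and at the highest 39.3 and 42.9. Only 12 of the 144 gained regions lacked a peak in all 3 deposited lists without guide, and 15 of the 137 lost regions lacked one in all 3 deposited Cr4 lists. The others had a peak there that ranked below the end of the shortened list in at least 1 library, and 16 of the gained and 27 of the lost regions had one in all 3.

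The regions with the highest pileup stood apart from the rest in this, with peaks in nearly all deposited lists of the other group. The gained region with the highest pileup, chr1:44760418-44760716, had 69, 56 and 113 fragments with Cr4, and in the deposited lists without guide it had 52, 90 and 37 fragments. The lost region with the highest pileup, chr7:100026173-100026624, had 124, 157 and 83 fragments without guide, and 127, 86 and 136 in the deposited Cr4 lists. The raw pileups overlap at both, although both count as absent from the other group's shortened lists. The next gained ones by pileup were chr6:28779712-28780080, chr7:101895871-101896314, chr6:6704613-6705059 and chr9:140032584-140032903, and the next lost ones chr1:20514181-20514704, chr3:38179942-38180631, chr1:25664210-25664491 and chr19:36036794-36037090. Of the 5 gained regions with the highest pileup, 4 had a peak in all 3 deposited lists of the other group and the fifth in 2, and all 5 lost ones had a peak in all 3.

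Most of these regions were also seen outside the 6 libraries. A peak was present in 1 to 8 of the other 9 shortened lists at 143 of 144 gained regions and at 134 of 137 lost regions, with a median of 4 of 9 lists for both. Gained regions had a peak in 49.5% of the list entries of dCas9 with Cr4, and lost regions in 51.8%. The same shares were 52.8% and 41.8% in dCas9 with Cr10, and 42.6% and 47.0% in dCas9-KRAB with Cr10. Of the lost regions 1 was in 0 of the 9 lists and 2 were in all 9, and of the gained regions 0 and 1. Gained and lost regions were picked for a peak in some of the 6 lists and none in the others. Presence in part of the other 9 lists may follow from that choice, and no share over all regions is given beside it.

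**Figure D4:**
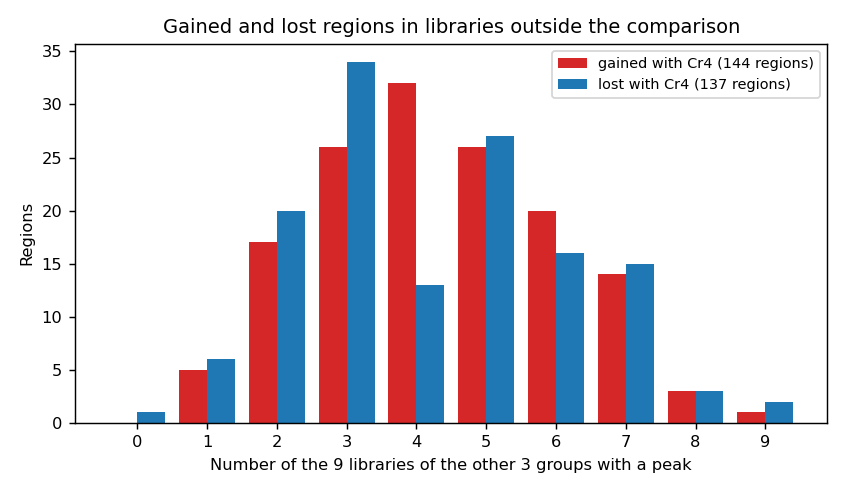
Number of gained (red, 144 in all) and lost (blue, 137 in all) regions (vertical axis) by how many of the 9 libraries of the other 3 groups had a peak there (horizontal axis). Both sets spread over the middle of the range with a median of 4 libraries.

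Chromosome by chromosome, the median pileup difference ran from -0.04 on chromosome 4 to 0.04 on chromosome 19 (log2). On chromosome 19, 3.15% of 2604 regions were higher with Cr4 without overlap and 0.883% lower, and on chromosome 4, 1.51% of 1255 were higher and 4.30% lower. Chromosome 11 as a whole, with 2166 regions, had 2.40% higher and 2.54% lower, close to the genome. As a share of the regions with a peak in any of the 6 lists, gains were highest on chromosome 14 (10 regions, 0.518%) and chromosome 6 (17 regions, 0.411%), and losses on chromosome 15 (14 regions, 0.582%), while chromosome 1, also with 14 lost, had 0.196%, near the genome's share.

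The levels at HS2 in the other 3 groups are given beside these for reference. The normalised pileup at HS2 was 0.85 ± 0.34 (log2, mean and SD, n = 3) in the cells without guide and 0.17 ± 0.24 in the cells of dCas9-KRAB and Cr4. It was -0.29 ± 0.38 where dCas9-KRAB had the guide Cr10, 0.52 ± 0.23 where dCas9 without KRAB had Cr4, and 0.57 ± 0.27 where it had Cr10. At HS3 the means were 0.71, -0.10, 0.04, 0.47 and 0.30 in the same order. In both, the 2 dCas9 groups, which lack the KRAB domain, lay between the cells without guide and those with dCas9-KRAB and Cr4. Whether the difference between Cr4 and no guide depends on the KRAB domain was not tested.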

How the data were processed

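Accessible chromatin of K562 cells was measured in 15 libraries of 5 groups of 3, of which the 3 of dCas9-KRAB with Cr4 and the 3 of dCas9-KRAB without guide are compared. Groups were taken from titles and the design text, since one label names HS2 as target in every library. Per the labels, cells were lysed and their nuclei digested by a published protocol, that of DNase-seq. Per the submitters' processing notes, CASAVA 1.3, BWA and bedtools were used with build hg19. The peak caller is not given in the sources used here. The authors deposited 1 peak list per library, with a score, a fold enrichment (a ratio) and a p-value as -log10, and positions. Scores were not tested.

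The lists were reduced to autosomes and chromosome X, cut to 53098 peaks by fold, and merged where they overlapped by at least 1 bp into 78352 regions, and 62858 with a peak in at least 3 of 15 libraries were tested by rank. Summit pileup k and local background b were solved from fold = (k + 1)/(b + 1) and the Poisson p-value, which matched 100% of peaks within 0.01 on the -log10 scale. Tests were limma 3.58.1 (R 4.3.3; empirical Bayes with trend, 5 groups in one fit, Benjamini-Hochberg over all regions, threshold 0.05) and the two-sided exact permutation test over 20 splits. Calculations used Python 3.11.15, numpy 2.4.6, pandas 2.3.3 and scipy 1.17.1, and were tested on simulated data. The deposited values carry no fragment totals, so no counting intervals are given.

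Named regions are HS2, the 11 windows of the globin cluster (recalled hg19 positions, without an hg19 annotation), every other tested region within 100 kb, the 5 regions per direction with the lowest limma p by rank and by pileup among those without overlap, and the 5 gained and 5 lost regions with the highest pileup. The members and lists were chosen with earlier results of these data known. No gene was assigned to other regions.

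Alternatives were leaving out each library, shorter or full lists, other scalings, filters, overlaps and limma settings, a replicate block, and, chosen after seeing the data, the lowest local background as a covariate.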

Additional observations from a re-analysis of the deposited data

How the results depend on the processing

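Under every alternative run (17 for rank, 15 for pileup), limma called 0 regions at an adjusted p under 0.05, with 867 to 2344 regions at an unadjusted p under 0.05 by rank and 173 to 707 by pileup. The lowest adjusted p reached in any setting was 0.104 by rank and 0.257 by pileup. In the main fit the unadjusted shares were 2.43% by rank and 0.723% by pileup, below a share of 0.05. The 0 calls therefore do not show that no region differs. The differences at HS2, HS3, HBG1 and HBG2 kept their sign in all 10 alternatives each. Leaving out 1 library gave -12.0 to -0.949 points for the rank of HS2, and on the log2 scale -0.89 to -0.58 for its pileup (exact permutation p 0.1 to 0.2), -0.93 to -0.66 for HS3, -0.58 to -0.39 for HBG1, -0.62 to -0.48 for HBG2 and -0.18 to -0.06 for the regions within 1 Mb. Leaving out 1 library moved the pileup difference of HS1 between -0.28 and 0.056 and that of HS4 between -0.34 and 0.034, above 0 at HS1 without replicate 3 of the cells with no guide and at HS4 without that library or without Cr4 replicate 1. By rank it gave -15.1 to -5.29 points at HBG2 (exact permutation p 0.1 to 0.3), 10.9 to 26.3 at HS1 and 7.47 to 20.9 at HS4. In the deposited lists at full length the rank difference was -10.8 points at HBG1 and -8.40 points at HBG2, with exact permutation p of 0.2 and 0.5, and the cause was not tested. Gained regions numbered 336 to 523 and lost regions 310 to 499 with 1 library left out, where presence in fewer libraries is asked for, and lost regions numbered 76 in the deposited lists. With the covariate for background, HS3 and HS2 were again the first 2 by pileup.

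Same-numbered libraries of the 2 groups deviated together with correlations of 0.52, -0.14 and 0.00 across regions, so the numbers were not taken to pair them. Between libraries of different number the correlations ran from -0.41 to 0.50. The highest was that of Cr4 replicate 3 with replicate 2 without guide, the deepest library of each group. Cr4 replicate 2 with replicate 3 without guide gave 0.29. The replicate block follows the numbers, and a pairing by depth was not tested. With a replicate block, the differences stay -6.71 points for the rank of HS2, -0.69 for its pileup and -0.13 within 1 Mb (exact sign-flip permutation p = 0.25 for each, the smallest possible), and limma called 0 regions by rank and by pileup, with 1913 and 556 at an unadjusted p under 0.05.

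With 3 libraries a group, the exact test cannot go below 0.1. Depth differs within both groups, with 1 deep library in each. Pileup was tested only where all 15 lists had a peak, so losses are not in it.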
